A study of Capra hircus with 20 samples.

Results

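The cholesterol synthesis enzymes described here are 8 named genes, HMGCS1, MVD, IDI1, FDPS, FDFT1, SQLE, LSS and DHCR7. The set was chosen by the deposited levels of MVD, which were lower at M4 than at D1, so the M4 vs. D1 values of all members are given as a description and were not tested. Of the 8 symbols, 7 were matched to a gene by its identifier, among 21071 genes in the table of expression values. IDI1, the isomerase between MVD and FDPS, was not matched and was not analysed here.

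RNA from the hypothalamus of female Jining grey goats of a single breeding farm was sequenced at 4 stages, with 5 goats per stage and 1 library per goat. The stages were D1 (age 1 day), M2 (60 days), M4 (120 days) and M6 (180 days). The labels give no treatment or allele, and the stages differ in them by age alone. Libraries were made from total RNA after removal of ribosomal RNA, and levels were deposited as FPKM, fragment counts scaled to transcript length and library size. Because the scale is per length, levels of different genes are set side by side below on that scale.

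Cholesterol is built from acetyl-CoA through mevalonate, isoprenoid pyrophosphates and squalene, which is closed into the sterol ring and then trimmed to cholesterol. The brain makes its own cholesterol, because the blood-brain barrier keeps out the lipoproteins of the blood, and myelin holds much of it. Oligodendrocytes that are laying down myelin and astrocytes are known for strong expression of these enzymes. Their genes share a regulator, SREBP-2 (the product of SREBF2), which is released from the endoplasmic reticulum when membrane sterol is low.

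In the ARS1.2 assembly, HMGCS1 (gene 102176561) lies on chromosome 20 at 31413652 to 31436393, MVD (102169040) on chromosome 18 at 15295908 to 15302596, and FDPS (102186540) on chromosome 3 at 104804880 to 104814193. FDFT1 (102173564) lies on chromosome 8 at 7451908 to 7479982 and SQLE (102187506) on chromosome 14 at 66867014 to 66889586. LSS (102175810) lies on chromosome 1 at 145851416 to 145883591 and DHCR7 (102171848) on chromosome 29 at 49316824 to 49335576. The 7 genes thus lie on 7 different chromosomes. Each value is a gene total, and no isoform was separated.

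Summed FPKM ranged from 260199 to 377479 over the 20 libraries, and read counts per gene were not used, so no counting interval is given. M2-1, M2-3 and M6-3 had the lowest median correlations with the other libraries, 0.841, 0.860 and 0.865, where the highest was 0.930. In M2-3 a single gene held 23.9% of the summed FPKM, and the largest such share elsewhere was 11.7%, in M6-5. No 2 libraries were identical. The 8 hypothalamic markers were uneven: AVP was above 0 in every library, OXT was at 0 in 6 libraries, HCRT in 6, NKX2-1 in 4, PMCH in 3, TRH in 1, SIM1 in 1 and GNRH1 in 12, and the summed level ran from 1.13 to 912 FPKM. The summed level of 8 myelin genes, led by MOBP and CLDN11, ran from 334 to 4572 FPKM in D1, 727 to 1911 in M2, 159 to 2480 in M4 and 247 to 3504 in M6. Both sums thus varied within stages as well as between them, and their part in the results below was not tested. In bulk tissue, fewer cells of a type and less RNA per cell cannot be told apart.

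All 7 enzymes had their highest mean level at D1, and the size of the gap to the later stages differed from gene to gene. The D1 mean of HMGCS1 was 3.51 times its M2 mean and 4.42 times its M6 mean. For MVD the same ratios were 3.14 and 3.70, for FDPS 2.58 and 2.77, and for SQLE 2.34 and 2.09. FDFT1 and DHCR7 stood lower by the D1 to M2 ratio, at 1.90 and 1.84, and LSS was last, with 1.29. Their D1 to M6 ratios were 1.84, 2.13 and 1.70, so by that ratio DHCR7 stood above SQLE.

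**Figure D1:**
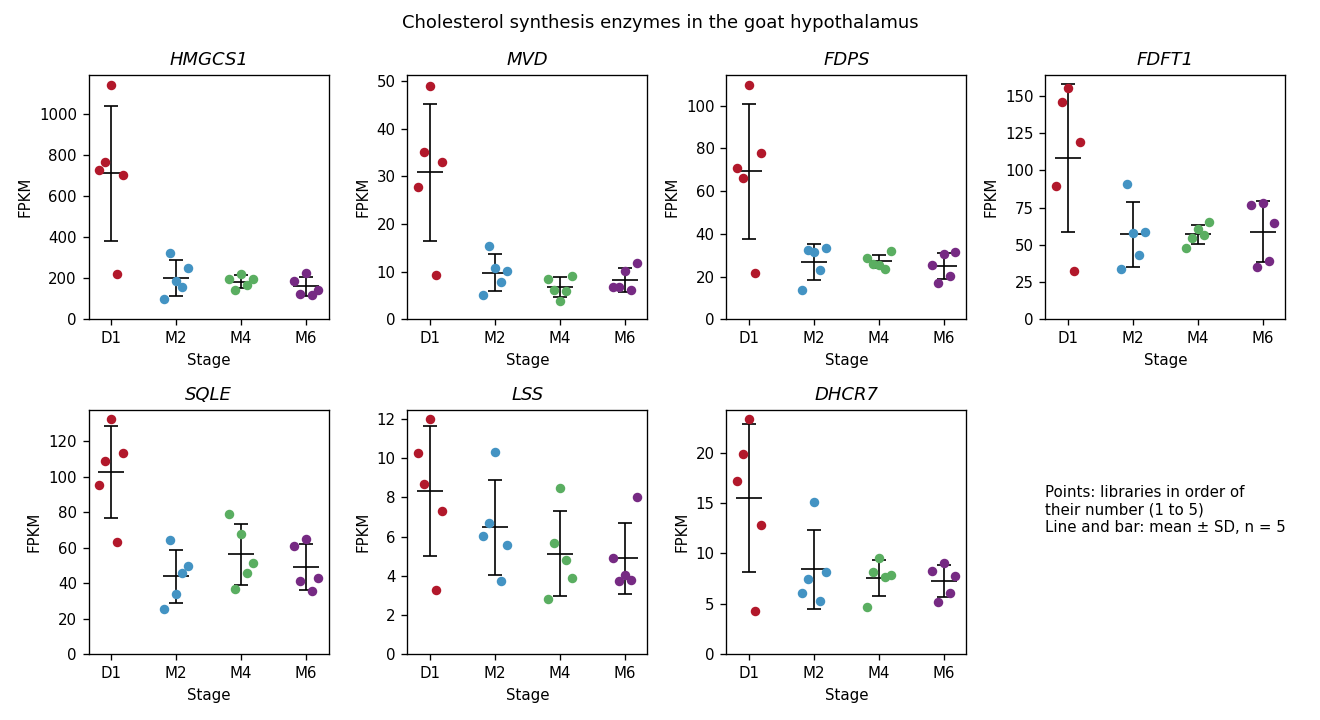
Level of the 7 matched enzymes in FPKM (vertical axis, linear, from 0) at the 4 stages; each point is a library, in the order of its number, and the line and bar are the mean ± SD (n = 5). In every panel 1 of the 5 D1 libraries, D1-4, sits low, at 220 FPKM for HMGCS1, while the other D1 libraries spread upwards to 1140 FPKM.

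HMGCS1, the cytosolic HMG-CoA synthase that adds acetyl-CoA to acetoacetyl-CoA, was the most abundant member at each stage. Its level in D1-1 to D1-5 was 727.5, 766.1, 1140, 220.2 and 702.7 FPKM. In M2-1 to M2-5 it was 98.5, 324.4, 185.7, 156.2 and 248.8 FPKM. In M4-1 to M4-5 it was 199.4, 144.1, 219.9, 166.7 and 194.8 FPKM, and in M6-1 to M6-5 it was 189.8, 124.6, 228.6, 117.7 and 144.4 FPKM. 4 D1 libraries were above all 15 later ones, and D1-4 was exceeded by 3 of them. The stage means were 711 ± 327, 203 ± 87.0, 185 ± 29.7 and 161 ± 47.1 FPKM (SD, n = 5 each), so the spread was also widest at D1.

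MVD, the decarboxylase that yields isopentenyl pyrophosphate and the gene behind the choice of the set, was among the less abundant members. Its D1 levels were 27.8, 35.1, 49.0, 9.38 and 33.0 FPKM, and its M4 levels were 8.55, 6.16, 3.95, 5.90 and 9.04 FPKM. The 2 groups were separated only by the gap between D1-4, at 9.38 FPKM, and M4-5, at 9.04 FPKM. The levels were 5.03, 15.4, 10.8, 7.80 and 10.2 FPKM in M2 and 6.71, 6.81, 10.1, 6.19 and 11.9 FPKM in M6, and 5 of the 15 later libraries exceeded D1-4. The stage means were 30.9 ± 14.4, 9.84 ± 3.83, 6.72 ± 2.08 and 8.34 ± 2.51 FPKM (SD, n = 5 each).

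FDPS makes farnesyl pyrophosphate, the last intermediate that sterols share with prenylated proteins and ubiquinone. Its D1 levels were 70.9, 66.1, 109.6, 21.5 and 78.0 FPKM. In M2 they were 13.7, 32.3, 31.5, 23.2 and 33.4 FPKM, in M4 28.8, 25.8, 25.5, 23.6 and 31.8 FPKM, and in M6 25.5, 17.3, 30.5, 20.1 and 31.6 FPKM. Again 4 D1 libraries were above all 15 later ones, while 12 of the 15 exceeded D1-4. The means of M2, M4 and M6 were 26.8 ± 8.39, 27.1 ± 3.22 and 25.0 ± 6.26 FPKM against 69.2 ± 31.6 FPKM at D1.

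FDFT1, squalene synthase, commits farnesyl pyrophosphate to sterols. It ranged from 32.6 to 155.1 FPKM in D1, 33.8 to 90.7 in M2, 48.2 to 65.5 in M4 and 35.1 to 78.3 in M6. Here 3 of the 5 D1 libraries were above all later ones, and D1-4 was below all 15 of them. The stage means were 108 ± 49.5, 57.0 ± 21.6, 57.2 ± 6.45 and 58.8 ± 20.5 FPKM.

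SQLE, squalene epoxidase, is the first step that needs oxygen and a second control point of the pathway. Its D1 levels were 95.4, 109.1, 132.6, 63.3 and 113.7 FPKM. In M2 they were 25.7, 64.6, 34.2, 45.9 and 49.7 FPKM, in M4 79.3, 37.0, 68.0, 45.8 and 51.7 FPKM, and in M6 60.8, 41.4, 65.1, 35.8 and 42.8 FPKM. As for HMGCS1, 4 D1 libraries stood above all later ones, and D1-4 was exceeded by 4 of 15. The D1 mean was 103 ± 25.8 FPKM and the later means were 44.0 ± 14.96, 56.4 ± 17.1 and 49.2 ± 12.9 FPKM.

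LSS, lanosterol synthase, closes squalene epoxide into the ring, and DHCR7 reduces the last double bond on the way to cholesterol. LSS was the least abundant member on average, at 8.32 ± 3.31, 6.47 ± 2.41, 5.13 ± 2.16 and 4.89 ± 1.82 FPKM from D1 to M6, and 1 D1 library was above all later ones. DHCR7 was at 15.5 ± 7.34, 8.41 ± 3.89, 7.58 ± 1.76 and 7.27 ± 1.62 FPKM, and 3 D1 libraries were above all later ones. In both genes the D1 range, 3.30 to 12.02 FPKM for LSS and 4.29 to 23.3 FPKM for DHCR7, covered most of the later values.

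HMGCS1, MVD, FDPS and SQLE thus each had 4 of 5 D1 libraries above all 15 later libraries. This way of counting was chosen after the values were seen, and MVD was picked on its D1 and M4 libraries, so the count is a description from which nothing is read. At least 4 such D1 libraries were found in 162 of the 16771 genes tested, 0.966%. D1-4 was the lowest and D1-3 the highest D1 library for 7 of 7 members.

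In M2 vs. D1, the comparison of newborn goats with goats of 2 months, the 6 members other than MVD were compared on log2(FPKM + 0.1), a scale that understates the change of low genes. HMGCS1 was lower at M2 by a log2 fold change of -1.75 (SE 0.37, limma adjusted p = 0.104). FDPS was at -1.26 (SE 0.33, adjusted p = 0.143) and SQLE at -1.25 (SE 0.27, adjusted p = 0.104). FDFT1 was at -0.82 (adjusted p = 0.275), DHCR7 at -0.77 (adjusted p = 0.314) and LSS at -0.31 (adjusted p = 0.700). With single libraries left out, LSS ran from -0.61 without D1-4 to -0.14 without M2-4, and stood at -0.15 without D1-3, -0.21 without D1-1 and -0.50 without M2-3. MVD, not tested, was at -1.55. None passed the threshold of an adjusted p under 0.05 with a log2 fold change of at least 1 in size. In limma 0 of 6 were called, where the share over all genes was 0.0%, and 5 of 6 were lower at an unadjusted p under 0.05, where the share over all genes was 9.35%. The median over the 6 genes was -1.04, and over all genes tested -0.07.

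The libraries of D1 and M2 did not overlap in 2.32% of all genes, with D1 higher, but overlapped for every member. For HMGCS1, MVD, FDPS and SQLE the overlap was through D1-4 alone, while FDFT1 and DHCR7 each had 2 D1 libraries and LSS had 4 below the highest M2 library. D1-4 was also the D1 library with the lowest summed myelin level, 334 FPKM against 3533 to 4572 FPKM in the other 4, and the highest summed neuron marker level, 1571 FPKM. Its summed astrocyte marker level, 1216 FPKM, was the lowest of D1 too. Without D1-4, HMGCS1 at -2.13 (limma adjusted p = 0.00801) and FDPS at -1.64 (adjusted p = 0.00933) passed, with a share of 0.0537% called lower over all genes. SQLE was then at -1.41 (adjusted p = 0.0509) and DHCR7 at -1.18 (adjusted p = 0.121). D1-4 was the lowest D1 library for 7 of 7 members, so leaving it out widens the gap by construction. The values without it are given as a description, from which nothing is read. With limma weights that count uneven libraries less, HMGCS1, FDPS, SQLE and DHCR7 passed, with adjusted p from 0.00978 to 0.0363 and a share of 0.34% over all genes. Without M2-1, M2-3 and M6-3, the 6 log2 fold changes ran from -1.43 to -0.55 and none passed.

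M6 vs. D1 compared the newborn with the oldest goats and used the same 5 D1 libraries. HMGCS1 was at -2.01 (SE 0.37, limma adjusted p = 0.0874), FDPS at -1.33 (SE 0.33, adjusted p = 0.273) and SQLE at -1.06 (SE 0.27, adjusted p = 0.284). DHCR7 was at -0.91, FDFT1 at -0.77 and LSS at -0.70, with adjusted p from 0.630 to 0.698, and MVD, not tested, at -1.74. Of the 6 tested, 0 were called by limma against a share of 0.00596% over all genes, and 5 were lower at an unadjusted p under 0.05 against a share of 4.08%. The median over the 6 genes was -0.99, and over all genes -0.05. The libraries of D1 and M6 overlapped for each of the 7 members, where 1.48% of all genes were lower without overlap. Without D1-4, HMGCS1 at -2.39 (limma adjusted p = 0.00143) and FDPS at -1.70 (adjusted p = 0.00454) passed, with a share of 0.113%. This too is a description, since D1-4 was the lowest D1 library for each member. Without M2-1, which enters through the shared estimate of the spread, HMGCS1 passed alone (adjusted p = 0.0475), with a share of 0.0239%, and with library weights the same 4 genes passed as in M2 vs. D1, with a share of 0.364%. Without M2-1, M2-3 and M6-3, HMGCS1 was at -2.15 (adjusted p = 0.0702) and none passed.

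The rule of choice used the D1 libraries that both of these comparisons share, and the other members followed MVD over the 20 libraries, with r from 0.567 for LSS to 0.929 for FDPS, so neither comparison is independent of that choice. In M4 vs. D1, the comparison the choice rests on, the log2 fold changes were -2.06 for MVD, -1.78 for HMGCS1, -1.18 for FDPS, -0.88 for SQLE, -0.86 for DHCR7, -0.74 for FDFT1 and -0.66 for LSS. The libraries of both stages did not overlap for MVD and HMGCS1, as in 1.52% of all genes, and for HMGCS1 the gap was between 220.2 FPKM in D1-4 and 219.9 FPKM in M4-3.

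**Figure D2:**
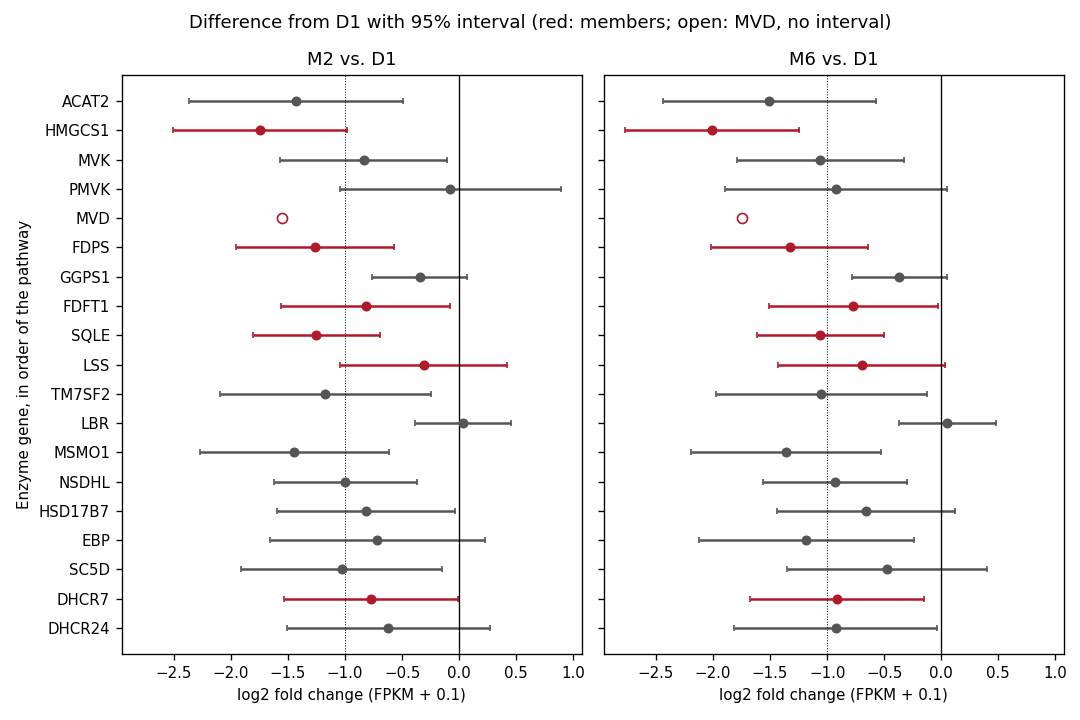
log2 fold change on the FPKM + 0.1 scale (horizontal axis) of 19 pathway genes in M2 vs. D1 and M6 vs. D1, with the 95% interval of limma, not adjusted for the number of genes; the enzymes of the set are red, and the open point is MVD, shown without an interval. HMGCS1 lies at -1.75 and -2.01, ACAT2 at -1.43 and -1.51, and LBR at 0.04 and 0.05.

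Between the later stages no member passed the test. The log2 fold changes ran from -0.51 to 0.37 in M4 vs. M2, with 3 members higher and 4 lower in mean. In M6 vs. M4 they ran from -0.23 to 0.32, with 1 higher and 6 lower. Here and below, such counts are by the mean of log2(FPKM + 0.1). The FPKM means can differ in direction, as for FDFT1, with 57.2 FPKM at M4 and 58.8 FPKM at M6. In limma 0 of 6 passed in either comparison, against shares of 0.0% in both, and 0 had an unadjusted p under 0.05, against shares of 8.68% and 6.87%. The smallest adjusted p was 0.686 and 0.915. In M6 vs. M2, where MVD could be tested, it was at -0.19 (SE 0.37, limma adjusted p = 0.907, 95% interval -0.96 to 0.58), and HMGCS1 was at -0.27 (95% interval -1.03 to 0.50, adjusted p = 0.866). In that comparison 0 of 7 passed, against a share of 0.0%, and 0 had an unadjusted p under 0.05, against 6.14%. The intervals still hold differences of up to 1.12 on the log2 scale, so these values do not show that the stages were alike.

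Other enzymes of the pathway, 12 of 13 matched, were mostly lower in mean after D1 as well. In M2 vs. D1, 11 of 12 were lower in mean, with a median of -0.83. Of these, 7 were lower at an unadjusted p under 0.05, against 9.35% of all genes, and limma called 0, against 0.0%. The list was chosen with earlier results known, and the comparison uses the D1 libraries that picked the set. Its counts here and in M6 vs. D1 are thus a description and not independent of that choice. ACAT2, which makes acetoacetyl-CoA, was at -1.43 (SE 0.45, adjusted p = 0.175), and MSMO1, a sterol methyl oxidase, at -1.44 (SE 0.40, adjusted p = 0.148). MSMO1 was second in level to HMGCS1 at D1, with means of 365, 133, 149 and 132 FPKM from D1 to M6. NSDHL, which removes the oxidised methyl groups, was at -0.997 (adjusted p = 0.164), and MVK, mevalonate kinase, at -0.84 (adjusted p = 0.264). With mapping rate as a covariate MVK stood at -0.37, and with a replicate block added to it MVK stood at -0.0085, NSDHL at -0.23 and ACAT2 at -0.57.

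Not every step stood lower by as much. PMVK, phosphomevalonate kinase, was at -0.08, GGPS1, which leads to geranylgeranyl pyrophosphate and not to sterols, at -0.35, and LBR, a sterol reductase that is also a receptor of the nuclear lamina, at 0.04. In M6 vs. D1, 11 of 12 were again lower in mean, with a median of -0.93. In that comparison 7 were lower at an unadjusted p under 0.05, against 4.08% of all genes, and limma called 0, against 0.00596%. ACAT2 was at -1.51 (adjusted p = 0.446) and PMVK at -0.92 (adjusted p = 0.698).

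**Figure D3:**
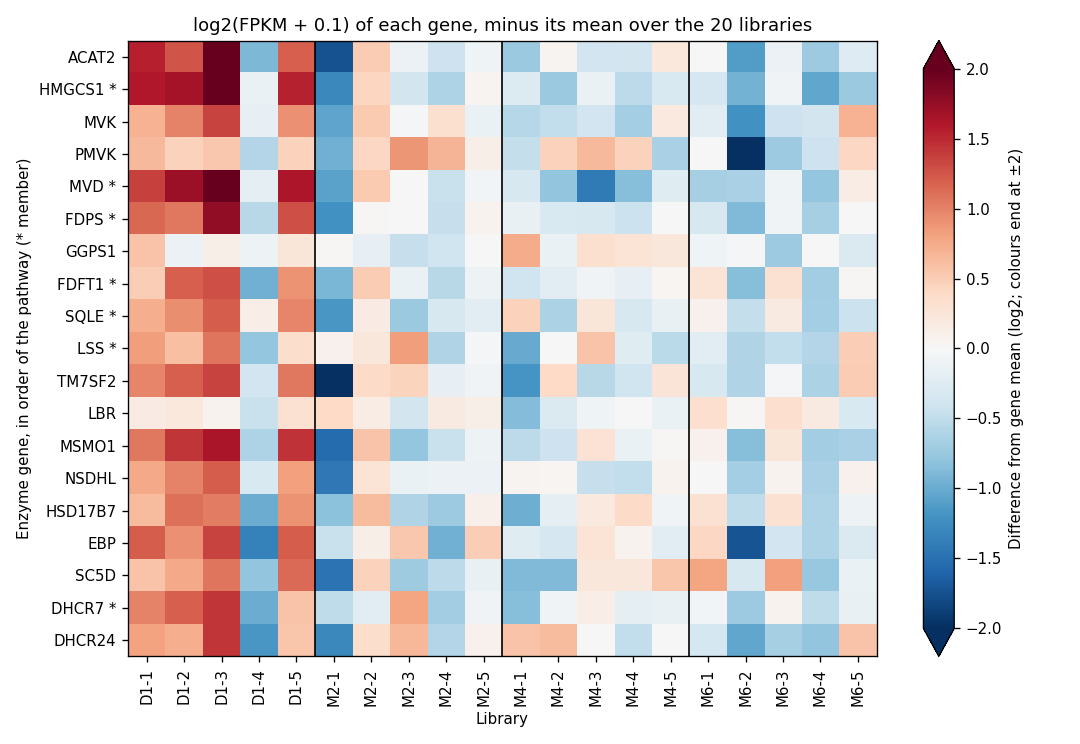
log2(FPKM + 0.1) of 19 pathway enzymes (rows, in pathway order, members with an asterisk) in the 20 libraries (columns, by stage), minus the mean of each gene; red is above and blue below that mean, and colours end at ±2. The columns of D1-1, D1-2, D1-3 and D1-5 are red for most genes, D1-4 and M2-1 are blue for most, and GGPS1 and LBR show little of this.

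The regulators of the pathway, 10 of 10 matched, had no common direction. In M2 vs. D1, 6 were higher and 4 lower in mean, with a median of 0.14, and limma called 0, against 0.0% of all genes. At an unadjusted p under 0.05, 1 of 10 was higher and 1 lower, near the shares of 6.25% and 9.35% over all genes. These regulators were SCAP, the escort of SREBP proteins, at 0.65 (SE 0.29, limma adjusted p = 0.288), and STARD4, a sterol carrier, at -0.62 (SE 0.21, adjusted p = 0.194). SREBF2 itself was at 0.48 (adjusted p = 0.444), with means of 8.91 ± 2.69 FPKM at D1 and 12.2 ± 2.37 FPKM at M2 (SD, n = 5). INSIG1, which holds SREBP proteins back and is also one of their targets, was at -0.57 (adjusted p = 0.505).

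The members varied together from library to library. Over the 21 pairs, Pearson's r of log2(FPKM + 0.1) over 20 libraries had a median of 0.815, from 0.331 for SQLE and LSS to 0.953 for HMGCS1 and FDPS. With stage means removed the median was 0.718, and over the 15 later libraries alone 0.534, from -0.26 to 0.820. All libraries share their depth and composition across the genes, and these values are given as a description, without a p.

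By likeness to the mean of the 7 standardized members, among 13671 genes with a mean of at least 1 FPKM, 7 of the 30 most alike genes outside the set were other enzymes of the pathway. ACAT2 was at r = 0.953, MSMO1 at 0.922 and INSIG1 at 0.883, while SREBF2 was at 0.09. Outside all lists the 5 most alike genes were IDH1 (r = 0.936), LOC102191533 (0.923), ACSS2 (0.906), RDH11 (0.905) and VMP1 (0.895). IDH1, the cytosolic isocitrate dehydrogenase that makes NADPH, had means of 165.8, 48.1, 37.9 and 38.0 FPKM from D1 to M6. ACSS2, which makes acetyl-CoA from acetate, had means of 11.8, 5.38, 6.58 and 4.78 FPKM. LOC102191533 was at 76.6, 21.5, 28.3 and 19.7 FPKM, RDH11, a retinol dehydrogenase, at 21.7, 9.93, 11.7 and 10.4 FPKM, and VMP1, a membrane protein of the endoplasmic reticulum, at 33.0, 17.6, 17.6 and 18.8 FPKM.

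The 8 myelin genes were also lower in mean at M2 than at D1, 8 of 8 with a median log2 fold change of -0.78, and in M6 vs. D1 6 of 8 were lower with a median of -0.57. In both comparisons limma called 0 of them, against 0.0% and 0.00596% of all genes. At an unadjusted p under 0.05, 0 were found in either direction, against 15.6% and 7.41% of all genes. Of 5 genes of oligodendrocyte progenitors, 5 were lower in mean in M2 vs. D1, with a median of -0.31, and 3 in M6 vs. D1. Of 5 astrocyte genes, 3 were lower and 2 higher in mean in M2 vs. D1, with a median of -0.06. In M6 vs. D1, 2 astrocyte genes were lower and 3 higher, with a median of 0.08. Of 7 neuron genes, 5 were lower in M2 vs. D1, with a median of -0.71. In M6 vs. D1, 7 were lower, with a median of -1.10, larger in size than that of the members. However, the summed neuron level was 77.1 FPKM in M6-3, against 635 to 974 FPKM in the other M6 libraries. M6-3 thus weighs on the median of M6 vs. D1. The part of neurons in that comparison was not tested. Libraries of like myelin level are set side by side here, a single library against a single library, as a description from which nothing is read. HMGCS1 was at 228.6 FPKM in M6-3, with a summed myelin level of 3504 FPKM, and at 727.5 FPKM in D1-1, with 3533 FPKM. It was at 144.1 FPKM in M4-2, with 316 FPKM of myelin genes, and at 220.2 FPKM in D1-4, with 334 FPKM. In the first pair D1-1 was higher for 7 of 7 members, but its summed neuron level was 1149 FPKM, against 77.1 FPKM in M6-3. In the second, D1-4 was higher for HMGCS1, MVD and SQLE and lower for the other 4, with FDPS at 21.5 FPKM in D1-4 and 25.8 in M4-2, and FDFT1 at 32.6 and 54.9. M4-1, with 159 FPKM of myelin genes, the lowest of all libraries, held 199.4 FPKM of HMGCS1. It had the highest SQLE of the later libraries, at 79.3 FPKM, but the lowest LSS, at 2.79 FPKM, and DHCR7, at 4.72 FPKM. M6-4, next lowest with 247 FPKM of myelin genes, held 117.7 FPKM of HMGCS1. The part of oligodendrocytes in the difference between stages was not tested.

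Over the 15 later libraries the summed myelin level varied 22.1-fold and each member from 2.44-fold to 3.88-fold. MVD was left out here, since its M4 levels chose the set. Of the 6 relations tested on log2 values, those of DHCR7 and FDFT1 were closest. DHCR7 had Pearson's r = 0.559 (permutation p = 0.0336, adjusted 0.121) and Spearman's rho = 0.746 (permutation p = 0.00206, adjusted 0.00735), all tests being two-sided. FDFT1 had r = 0.533 (permutation p = 0.0405, adjusted 0.121) and rho = 0.736 (permutation p = 0.00245, adjusted 0.00735). Without M4-1 and M6-4, the libraries farthest from the median myelin level, r was 0.338 for DHCR7 and 0.487 for FDFT1, and with stage means removed it was 0.581 and 0.565. After adjustment the permutation p of rho was below 0.05 for these 2 genes, and the permutation p of r was below 0.05 for no gene.

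For HMGCS1, r was 0.385 (permutation p = 0.156, adjusted 0.234) and rho 0.461 (permutation p = 0.0847, adjusted 0.161), with r = 0.485 without these 2 libraries and 0.447 within stages. For SQLE, r was 0.144 (permutation p = 0.607, adjusted 0.607) and rho 0.354 (permutation p = 0.198, adjusted 0.201), and r was 0.564 without M4-1 and M6-4. The 5 D1 libraries are too few for a correlation, but D1-4 was the lowest and D1-3 the highest of them in the summed myelin level as well as in each member. Over all 20 libraries CLDN11 had a rho of 0.857 and an r of 0.707 with the mean of the members. These were the highest of the 8 myelin genes, and the lowest were a rho of 0.405 and an r of 0.303. All are given as a description. FDPS had r = 0.259 (permutation p = 0.358, adjusted 0.429) and rho = 0.350 (permutation p = 0.201, adjusted 0.201). LSS had r = 0.455 (permutation p = 0.0898, adjusted 0.180) and rho = 0.436 (permutation p = 0.107, adjusted 0.161), and r = 0.08 without the same 2 libraries, on which its value rests.

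**Figure D4:**
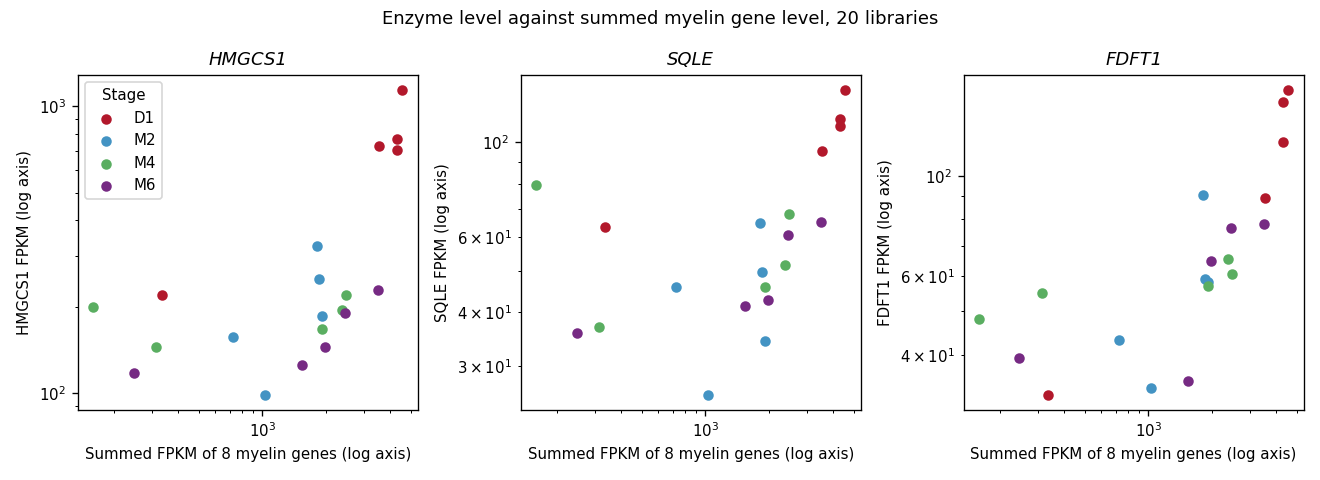
Level of HMGCS1, SQLE and FDFT1 in FPKM (vertical axes, log) against the summed FPKM of 8 myelin genes (horizontal axes, log) in the 20 libraries, coloured by stage. For HMGCS1 the 4 high D1 libraries lie at 703 to 1140 FPKM, above M6-3, which has 228.6 FPKM at the myelin level of D1-1, whereas D1-4 sits at a myelin level of 334 FPKM with 220.2 FPKM.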

How the data were processed

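The 20 goat hypothalamus libraries were grouped by the stage in their labels, with 5 goats per stage. The authors removed ribosomal RNA, made strand-specific libraries, aligned reads to ARS1.2 with HISAT2 2.0.5, assembled transcripts with StringTie 1.3.3b and deposited levels as FPKM per gene. Read counts per gene were not used here, so counting error was not estimated. The study reports the reads of each library, of which only the mapping rate was used, as a covariate.

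From these values, log2(FPKM + 0.1) of 16771 genes, those that reached 0.1 FPKM in 5 or more libraries, was fitted in limma 3.58.1 (R 4.3.3), with all stages in a single fit, an empirical Bayes estimate of the spread and Benjamini-Hochberg adjustment over all genes. A gene was called where its adjusted p was below 0.05 and its log2 fold change was 1 or more in size. The scripts were tested on simulated data. Correlations were tested with 100000 permutations (scipy 1.17.1). Symbols were matched by gene identifier (20610 of 21071 genes).

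The members and lists were chosen with earlier results of these data known. Some genes of the lists are not reported here and were taken out of them, sums included, after the results had been seen. Every member, other enzymes and regulators of the pathway could be named, with the 2 highest and 2 lowest genes of a list of sterol turnover and export in M2 vs. D1, the 2 most abundant genes of a marker list, and the 5 most alike genes outside the lists. Hypothalamic markers at 0 are also named. Alternatives were other pseudocounts, filters and scalings, library weights, mapping rate as a covariate, a replicate block, and leaving out libraries.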

Additional observations from a re-analysis of the deposited data

Results flagged for a closer look

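LSS in M6 had 1 library far from the others. M6-5 was at 8.04 FPKM, where the other 4 M6 libraries lay between 3.72 and 4.89 FPKM, and the gap was 0.728 of the range of the stage. Of the 28 groups of 5 libraries examined, 1 in 20 would be picked out by chance, or 1.4 in all. M6-5 was also the highest M6 library for MVD, at 11.9 FPKM, and FDPS, at 31.6 FPKM, but not for HMGCS1 or SQLE.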

How the results depend on the processing

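Read counts per gene were not used, so counting error was not separated from the spread between goats. Members passing the threshold in M2 vs. D1 went from 0 to 4 with library quality weights and to 2 without D1 replicate 4. In M6 vs. D1 they went from 0 to 4 with the weights, to 2 without D1 replicate 4 and to 1 without M2 replicate 1. D1 replicate 4 was the lowest D1 library for each member, so leaving it out widens the gap by construction. With each library left out in turn, the count ranged from 0 to 2 in M2 vs. D1 and in M6 vs. D1, and was 0 in the other comparisons. All tested members kept their sign in M2 vs. D1 and M6 vs. D1 over 33 alternatives. Many of these could not move a log2 fold change, so their count is no measure of its firmness. They left out libraries of other stages, changed only the filter or the estimate of the spread, or added the replicate block alone. In M2 vs. D1 the values nearest 0 came from the replicate block with mapping rate, at -1.09 for HMGCS1, -0.61 for FDPS, -0.37 for FDFT1 and -0.67 for SQLE, each smaller by over 1.5 times; in M6 vs. D1 FDPS was then at -0.87, FDFT1 at -0.46 and SQLE at -0.66. FDFT1 was at -0.45 in M2 vs. D1 with quantile normalization. The median correlation of member pairs was 0.702 by Spearman. Median-ratio scaling moved the median of all genes in M2 vs. D1 from -0.07 to 0.07, and LSS then stood at -0.17.

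Turned in sign in M2 vs. D1 were ABCA1 at -0.48 with the replicate block and mapping rate, ABCG1 at -0.12 with mapping rate and -0.34 with both, and SOAT1 at 0.0114 with mapping rate and 0.00672 without M2 replicates 1 and 3 and M6 replicate 3, a choice made after seeing the data. The cause was not tested. With single libraries left out SOAT1 ran from -0.458 to -0.146. The replicate numbers did not pair the goats: 7 of 30 same-numbered pairs had r over 0.1, and 3 libraries correlated best with their own number. With the replicate block 0 members passed in each comparison.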

Other observations

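Genes of sterol turnover and export, 10 of 11 matched, did not stand lower as a list after D1. In M2 vs. D1, 6 were higher and 4 lower in mean, and limma called 0, against 0.0% of all genes. At an unadjusted p under 0.05, 0 were found in either direction, against 15.6% of all genes. The highest were ABCA1 and ABCG1, transporters that pass cholesterol out of the cell, at log2 fold changes of 0.66 (SE 0.32, adjusted p = 0.325) and 0.50 (SE 0.30, adjusted p = 0.427). The lowest were NPC1, which lets cholesterol out of lysosomes, at -0.31 (adjusted p = 0.862), and SOAT1, which esterifies it, at -0.30 (adjusted p = 0.544). NPC1 ran from -0.77 without D1-4 to -0.105 without M2-4, and reached -1.32 with the replicate block and mapping rate in the fit. ABCG1 had means of 4.46 ± 0.96, 6.39 ± 1.90, 7.73 ± 3.66 and 7.97 ± 1.89 FPKM from D1 to M6 (SD, n = 5). In M6 vs. D1, ABCG1 was at 0.81 (limma adjusted p = 0.606) and ABCA1 at 0.74 (adjusted p = 0.638). They were the 2 of 10 genes of the list with an unadjusted p under 0.05 in that comparison, against 3.33% of all genes higher. In M2 vs. D1 the sign of ABCG1 changed with mapping rate in the fit, and that of ABCA1 only with the replicate block and mapping rate together.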
